A study of Rattus norvegicus with 23 samples.

Results

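A set of 5 rat genes of skeletal muscle was followed through the repair of a cut nerve with a muscle graft. They are 3 transcriptional regulators of muscle formation, Myod1 (ENSRNOG00000011306), Myog (ENSRNOG00000030743) and Pax7 (ENSRNOG00000018739), and 2 ubiquitin ligases of muscle atrophy, Fbxo32 (ENSRNOG00000006738) and Trim63 (ENSRNOG00000016543). They were chosen by identifier, as 5 of the 32545 gene identifiers in the count table, and all 5 were present and passed the filter on low counts in both model fits. RNA was sequenced from 23 libraries of wild-type adult female rats. In the repaired animals the median nerve was transected to leave an 8 mm gap, and the design names a 10 mm muscle-in-vein graft, in which a vein segment packed with skeletal muscle fibres bridges the nerve stumps. The groups were nerves labelled as repaired after cut injury with MIV, the muscle-in-vein graft, at day 7 (n = 3) and at day 3 (n = 3), and nerves titled EV and labelled as repaired after cut injury at day 7 (n = 3) and at day 3 (n = 3). Untreated tissues were labelled healthy adductor muscle (n = 3), healthy median nerve (n = 5) and healthy epigastric vein (n = 3), all at day 0. The labels do not spell out EV, and they do not say whether replicates are separate animals. The p-values therefore rest on the spread among these libraries alone, which may be technical.

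Skeletal muscle repairs itself from satellite cells, resident stem cells that lie beneath the sheath of the fibre and carry the transcription factor Pax7. After injury these cells divide as myoblasts under Myod1, a basic helix-loop-helix factor that sets muscle identity, and then turn on Myog, the related factor that drives myoblasts out of division and into differentiation and fusion. Fbxo32 (atrogin-1, MAFbx) and Trim63 (MuRF1) encode muscle E3 ubiquitin ligases that mark proteins for the proteasome and are classic markers of wasting after denervation, fasting or glucocorticoid treatment. Fbxo32 is also expressed in cardiac and smooth muscle, whereas Trim63 is largely a gene of striated muscle.

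The upstream sequences of Myog and Trim63 are shown because these genes passed the test between MIV and EV nerves over both days, 1 in each class. They are the bases just before the annotated gene in RefSeq, assembly GRCr8, Myog at chr13:48297226-48297475 and Trim63 at chr5:151816986-151817208, both on the plus strand. Capitals mark matches on either strand to 3 motifs: the E-box CANNTG, bound by Myod1 and Myog among many helix-loop-helix factors, the forkhead motif GTAAACA, bound by FoxO factors, and TATTTAT, a stretch of the MEF2 box known from the Myog promoter.
Myog: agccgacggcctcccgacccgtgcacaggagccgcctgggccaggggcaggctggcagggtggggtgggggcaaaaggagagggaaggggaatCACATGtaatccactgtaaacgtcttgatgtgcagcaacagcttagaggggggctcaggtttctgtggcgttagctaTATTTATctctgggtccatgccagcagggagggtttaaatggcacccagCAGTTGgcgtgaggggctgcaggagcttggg
Trim63: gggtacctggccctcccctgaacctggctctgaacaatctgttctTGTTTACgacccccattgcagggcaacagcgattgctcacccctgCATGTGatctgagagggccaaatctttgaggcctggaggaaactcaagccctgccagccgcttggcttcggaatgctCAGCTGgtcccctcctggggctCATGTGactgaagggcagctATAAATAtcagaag
The 250 bases of Myog held 2 E-boxes, whose first bases lay 157 and 31 bases before the gene, and 65.5% of all 33469 promoters held an E-box in a window of that length. TATTTAT began 80 bases before Myog, beside 5.56% of promoters, and its letters were taken from the known Myog site, so the match was certain to be found if the rat kept it. The 223 bases of Trim63 held 3 E-boxes, starting 133, 56 and 34 bases before the gene, against 61.2% of promoters with at least 1. For the shares beside Trim63, promoters were searched up to the start site of each promoter entry. The Trim63 window stopped upstream of that site in its own entry, so the windows were placed differently. The forkhead motif lay in Trim63 on the minus strand, printed as TGTTTAC from 178 bases before the gene, beside 2.84% of promoters. The letters TATTTAT lay there on the minus strand too, printed as ATAAATA from 14 bases before the gene, beside 4.88% of promoters. That is a match of letters alone, and whether MEF2 binds there was not tested. No match overlapped another. The 183-base window of Pax7 held none of the 3 motifs.

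Library totals ranged from 12504035 to 17314324 counts, and levels are given as CPM, counts per 1000000 after scaling by edgeR's TMM factors. Intervals, and limits set by 3 counts where a group had 0, cover counting error only. Such a limit sets the mean of 1 group against 3 counts over all libraries of the other, and is no bound for single libraries. To follow the graft tissue without gene symbols, 806 muscle-enriched genes were defined on the healthy libraries as those over 3 log2 units higher in muscle than in nerve and in vein, without the 5 genes themselves. They held 51.4% to 57% of counts in healthy muscle, 1.9% to 2.23% in nerve and 2.43% to 2.87% in vein. Their share was 8.99%, 2.6% and 18.9% in MIV replicates 1, 2 and 3 at day 7, and 5.74%, 3.78% and 3.7% at day 3, against 2.6% to 2.75% in EV nerves at day 7 and 2.72% to 3.39% at day 3. MIV day 7 replicate 2 thus lay within the EV range of this set, and above the EV range in a narrower set described below. MIV day 3 replicate 1 carried most of the ligase counts of its group. EV day 3 replicate 2 held 83 counts of Myod1, 57 of Myog and 6 of Pax7, all at 0 in the other 2 libraries of its group, while its muscle-enriched share of 3.09% lay between theirs. Whether any of these libraries is mixed or mislabelled was not tested. Differences that rest on them are given with and without them. In bulk tissue, fewer muscle cells and less RNA per cell cannot be told apart.

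Among the healthy tissues all 5 genes had their highest levels in muscle. Myod1 had 56.4, 64.5 and 104 CPM in the 3 muscle libraries and 0 counts in all 8 nerve and vein libraries. Myog had 32.4, 49 and 37.5 CPM in muscle, 0 counts in vein and 2 counts in 1 of 5 nerve libraries. Pax7 was low even in muscle, at 1.09, 1.47 and 0.423 CPM, from 6, 9 and 3 counts, and was at 0 in nerve and vein. The regulators were thus all but restricted to muscle among these healthy libraries. Trim63 had 613, 575 and 1710 CPM in muscle, against 0.355 to 1.05 CPM in nerve and 1.81 to 3.09 CPM in vein. Fbxo32 was present in every tissue, with 138, 102 and 510 CPM in muscle, 8.5 to 14.1 CPM in nerve and 45.8 to 53.7 CPM in vein. Muscle replicate 3 was the highest for Myod1, Fbxo32 and Trim63.

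All 5 genes were higher in muscle than in nerve, where 31.5% of all tested genes were called higher (edgeR quasi-likelihood test, adjusted p under 0.05). Against the nerve libraries at 0, Myod1 was at least 1972-fold higher (adjusted p = 0.000157) and Pax7 at least 26-fold higher (adjusted p = 0.0095). Myog exceeded nerve by a count ratio of 1570, with a 95% counting interval of 433 to 13000 (adjusted p = 4.96e-06). The ligases were higher by 4.3 ± 0.59 log2 units for Fbxo32 (SE, adjusted p = 2.47e-06) and by 10.16 ± 1.15 for Trim63 (adjusted p = 2.17e-07). Against vein all 5 were also higher, beside 30.8% of tested genes. The differences from vein were at least 1323-fold for Myod1 (adjusted p = 0.000906), at least 699-fold for Myog (adjusted p = 4.76e-05), at least 17-fold for Pax7 (adjusted p = 0.0228), 2.34 ± 0.66 log2 units for Fbxo32 (adjusted p = 0.00432) and 8.57 ± 1.34 for Trim63 (adjusted p = 1.53e-05). Without muscle replicate 3 the differences from nerve were 3.19 for Fbxo32 and 9.41 for Trim63, and that of Trim63 from vein was 7.81, all still called. With library totals in place of TMM factors, the calls of Pax7 (adjusted p = 0.0585) and Fbxo32 (0.84 log2 units, adjusted p = 0.227) against vein were lost. The Pax7 call was also lost without muscle replicate 2, vein replicate 1 or vein replicate 3 (adjusted p of 0.0511 to 0.0591), and the Fbxo32 call without muscle replicate 3 (1.23, adjusted p = 0.0915).

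**Figure D1:**
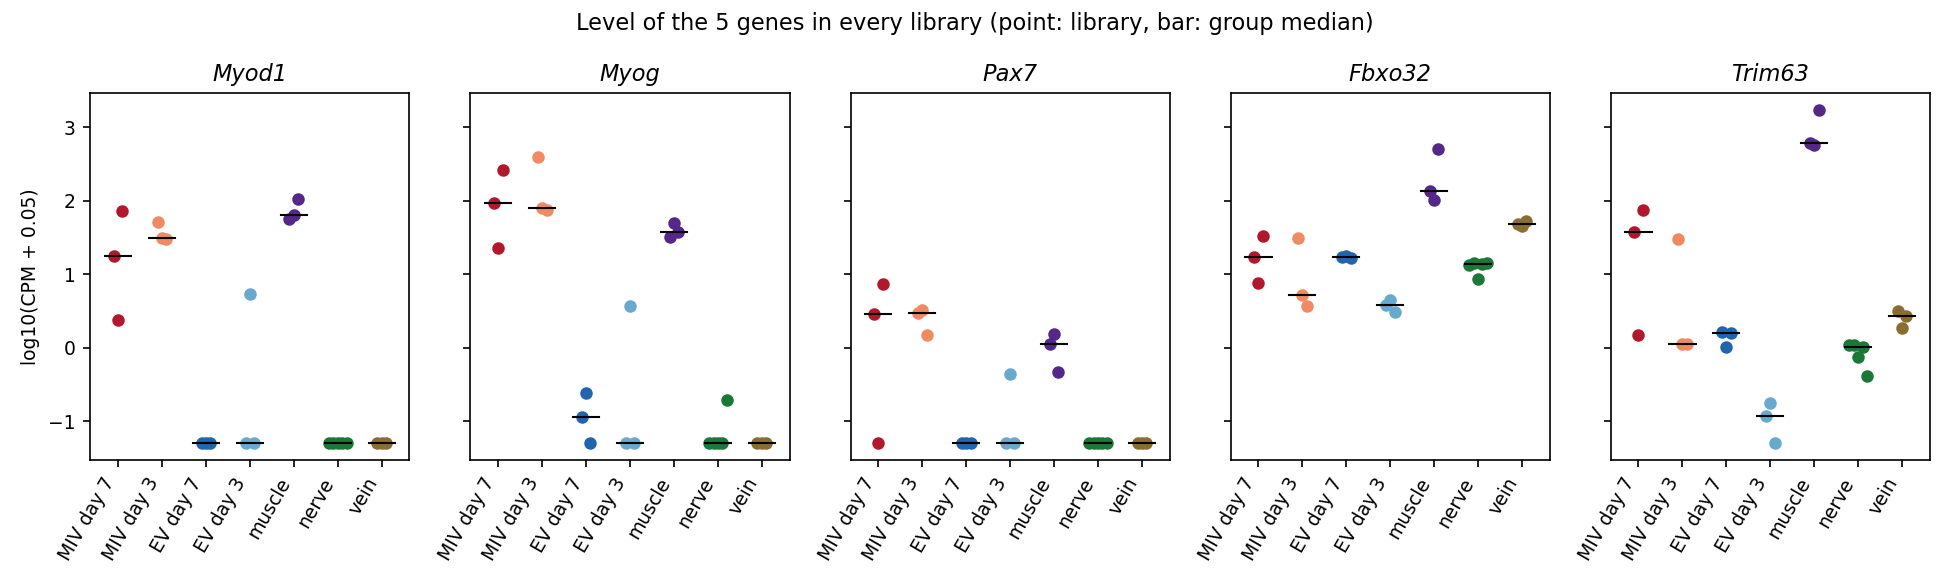
Levels of the 5 genes in all 23 libraries, as log10(CPM + 0.05), where a library with 0 counts sits at the bottom of the panel. Each point is 1 library and the bar is the group median. Myod1, Myog and Pax7 lay at or near the bottom in nerve, vein and 5 of the 6 EV libraries, and Trim63 was highest in healthy muscle.

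Myog, the differentiation factor, separated all 6 MIV nerves from all 6 EV nerves. It had 1630, 339 and 3735 counts in MIV nerves at day 7 (92.7, 23 and 263 CPM), against 1, 3 and 0 counts in EV nerves at day 7. At day 3 the MIV nerves held 7790, 1391 and 1539 counts (392, 79.5 and 73.8 CPM), against 0, 57 and 0 counts in EV nerves. The lowest MIV level, 23 CPM in day 7 replicate 2, was above the highest EV level, 3.65 CPM in day 3 replicate 2.

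Myod1, the determination factor, followed the same order among MIV libraries within each day. The MIV nerves had 311, 34 and 1044 counts at day 7 (17.7, 2.31 and 73.5 CPM), against 0 in all 3 EV nerves. At day 3 they had 1027, 539 and 636 counts (51.7, 30.8 and 30.5 CPM), against 0, 83 and 0 counts in EV nerves. The groups did not overlap within a day, but EV day 3 replicate 2, at 5.31 CPM, lay above MIV day 7 replicate 2.

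Pax7, the satellite cell factor, was measured with few counts. It had 50, 0 and 104 counts in MIV nerves at day 7 (2.85, 0 and 7.32 CPM), against 0 in all EV nerves. At day 3 it had 57, 56 and 30 counts in MIV nerves (2.87, 3.2 and 1.44 CPM), against 0, 6 and 0 in EV nerves. The MIV and EV nerves overlapped at day 7 through the single MIV library at 0, and they did not overlap at day 3.

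Trim63, the ligase of striated muscle, varied widely among the MIV nerves of a day. It had 663, 21 and 1073 counts in MIV nerves at day 7 (37.7, 1.43 and 75.5 CPM), against 25, 15 and 29 counts in EV nerves (1.56, 0.968 and 1.53 CPM). At day 3 it had 595, 19 and 22 counts in MIV nerves (29.9, 1.09 and 1.06 CPM), against 1, 2 and 0 counts in EV nerves. MIV day 7 replicate 2 lay inside the EV range of its day, and at day 3 the lowest MIV library was above the highest EV library.

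Fbxo32 was present in every library of both repairs. It had 16.8, 7.61 and 32.9 CPM in MIV nerves at day 7, against 17.1, 17.8 and 16.5 CPM in EV nerves. The EV values were tight and the MIV values lay on both sides of them. At day 3 it had 30.7, 5.2 and 3.65 CPM in MIV nerves, against 3.73, 4.41 and 3.03 CPM in EV nerves. Those groups overlapped, and MIV replicate 1 alone stood far above the EV range.

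Within a single day no member passed the adjusted threshold between MIV and EV nerves, and neither did any other gene. At day 7 the fit called 0 of 15036 genes, 0% (edgeR), while 4 of the 5 genes and 16.7% of all genes had an unadjusted p under 0.05. By group mean, at least 524-fold more Myod1 (adjusted p = 0.123) and at least 56-fold more Pax7 (adjusted p = 0.146) stood against 0 counts in EV nerves. MIV replicate 2 alone had 2.31 CPM of Myod1 and 0 counts of Pax7. The fitted log2 differences were 10.52 ± 1.99 for Myog (SE, adjusted p = 0.069), 4.83 ± 1.54 for Trim63 (adjusted p = 0.171) and 0.17 ± 0.72 for Fbxo32 (adjusted p = 0.92). At day 3 the fit again called 0 of 15036 genes, 0%, and all 5 members but 5.15% of all genes had an unadjusted p under 0.05. The log2 differences at day 3 were 7.22 ± 1.56 for Myog (adjusted p = 0.217), 4.41 ± 1.65 for Myod1 (adjusted p = 0.783), 4.22 ± 1.68 for Pax7 (adjusted p = 0.889) and 1.82 ± 0.76 for Fbxo32 (adjusted p = 0.909). The Trim63 count ratio at day 3 was 173, with a 95% counting interval of 58.9 to 841 (adjusted p = 0.405). Without EV day 3 replicate 2 the 3 regulators were at 0 in the EV nerves of that day, and Myog was at least 1930-fold higher (adjusted p = 0.335), Myod1 at least 400-fold higher (adjusted p = 0.469) and Pax7 at least 26-fold higher (adjusted p = 0.892) in MIV nerves. Without MIV day 3 replicate 1 the Trim63 ratio was 16.9, with an interval of 5.4 to 85.5 (adjusted p = 1), the Fbxo32 difference was 0.25 (adjusted p = 1) and the Myog difference 5.98 (adjusted p = 0.606). These counts of calls depended on the test: DESeq2 called all but Fbxo32 at day 7, beside 5.77% of genes, and Myog and Trim63 at day 3, beside 1.64% of genes, while limma voom called 0 members on either day, beside 3.15% of genes at day 7 and 0.206% at day 3. Without MIV day 7 replicate 2, edgeR called the same 4 genes at day 7 as DESeq2, beside 4.47% of genes. An edgeR fit of all 23 libraries also called members at each day, as given in the section on processing.

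Over both days, Myog and Trim63 were called higher in MIV nerves than in EV nerves. They were 2 of the 5 genes, where 1.42% of all tested genes were called higher and 0.12% lower. Myog averaged 154 ± 142 CPM in MIV nerves and 0.65 ± 1.47 CPM in EV nerves (SD, n = 6 each), a difference of 8.87 ± 1.26 log2 units (SE, edgeR adjusted p = 0.0111). Trim63 averaged 24.5 ± 29.8 CPM in MIV nerves and 0.709 ± 0.737 CPM in EV nerves, a difference of 6.03 ± 1.28 log2 units (adjusted p = 0.047). The other regulators had large differences in mean that did not pass: Myod1 averaged 34.4 ± 25.1 CPM in MIV nerves and 0.885 ± 2.17 CPM in EV nerves (adjusted p = 0.0628), and Pax7 averaged 2.95 ± 2.46 CPM in MIV nerves and 0.0639 ± 0.157 CPM in EV nerves (adjusted p = 0.0829). Fbxo32 averaged 16.1 ± 13 CPM in MIV nerves and 10.4 ± 7.37 CPM in EV nerves, with a fitted difference of 0.99 ± 0.52 log2 units (adjusted p = 0.395). DESeq2 called all but Fbxo32 over both days, beside 5.41% of genes, and limma voom called the 3 regulators, beside 3.27%.

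Both calls were sensitive to single libraries. Without EV day 3 replicate 2 Myog was still called, at 12.55 log2 units (adjusted p = 0.0375), and Trim63 was not (6.46, adjusted p = 0.135). Without MIV day 7 replicate 2 all members but Fbxo32 were called, beside 4.53% of genes. Without any 1 of the other 5 EV libraries Myog missed the threshold (adjusted p of 0.061 to 0.0655) at differences of 8.56 to 9.5 log2 units, so no member was called. Trim63 was also lost without MIV day 3 replicate 1 (4.38, adjusted p = 0.0893), MIV day 7 replicate 1 (6.04, adjusted p = 0.0561) or MIV day 7 replicate 3 (5.56, adjusted p = 0.0838). With the replicate number as a block, which called 0.725% of genes, Myog remained called (adjusted p = 0.0405) and Trim63 did not (5.42, adjusted p = 0.0968), and with the block at day 7 alone, which called 1.4% of genes, Myog and Pax7 were called (adjusted p = 0.0148 and 0.0443) and Trim63 was not (5.6, adjusted p = 0.0994).

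An exact two-sided permutation test of each gene's mean log2 CPM, with labels exchanged within days, used no information from other genes. Its smallest possible p is 0.005, over 400 arrangements. Myod1 and Myog reached that exact p of 0.005, higher by 6.7 and 8.62 log2 units in MIV nerves. Trim63 was higher by 3.91 log2 units (exact p = 0.015) and Pax7 by 3.63 log2 units (exact p = 0.02). Fbxo32 differed by 0.54 log2 units (exact p = 0.455). Same-numbered MIV and EV libraries at day 7 were also treated as pairs. The pairs were chosen from these data, by correlations of 0.176 to 0.224, and whether they are true pairs was not tested. With labels exchanged within those pairs, 160 arrangements remain and the smallest possible p is 0.0125. That exact p was reached by Myod1, Myog and Trim63, while Pax7 had exact p = 0.025 and Fbxo32 exact p = 0.45. Trim63 was higher in the MIV library in all 3 of those pairs. That depends on the pairing, since MIV replicate 2 (1.43 CPM) lay below EV replicates 1 and 3 (1.56 and 1.53 CPM). These are p-values for 5 single genes and were not adjusted.

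The muscle-enriched share of counts also differed among the repaired nerves, and its part in the differences was not tested. MIV day 7 replicate 3 had the largest share, 18.9%, and the highest Myod1, Pax7, Fbxo32 and Trim63 of the 6 MIV nerves. MIV day 7 replicate 2 had the smallest share, 2.6%, within the EV range, and the lowest Myod1, Myog and Pax7 of the MIV nerves. That library held 339 counts of Myog and 34 of Myod1, against 4 counts of Myog and 0 of Myod1 in the 3 EV day 7 nerves together. Its Trim63 of 1.43 CPM lay inside the EV day 7 range. Other libraries stood in a different order by level than by share. Myog was highest in MIV day 3 replicate 1, 392 CPM at a share of 5.74%, and Trim63 in MIV day 3 replicates 2 and 3, 1.09 and 1.06 CPM, was at the level of EV day 7 nerves (0.968 to 1.56 CPM), whose share was lower. Fbxo32 had 16.5 to 17.8 CPM in EV nerves at day 7 and 3.03 to 4.41 CPM at day 3, at shares of 2.6% to 2.75% and 2.72% to 3.39%. A narrower set held 356 genes, over 5 log2 units higher in muscle. It took 4.94%, 0.438% and 12.8% of counts in MIV replicates 1, 2 and 3 at day 7. EV nerves of that day had 0.216% to 0.24%. In this set MIV day 7 replicate 2 lay above all EV libraries of both days, whose highest value was 0.4%. EV day 3 replicate 2, the EV library with Myod1 and Myog, had 0.33% of counts in that set, between the 0.237% and 0.4% of the other 2 libraries of its group, both at 0 for Myod1 and Myog.

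**Figure D2:**
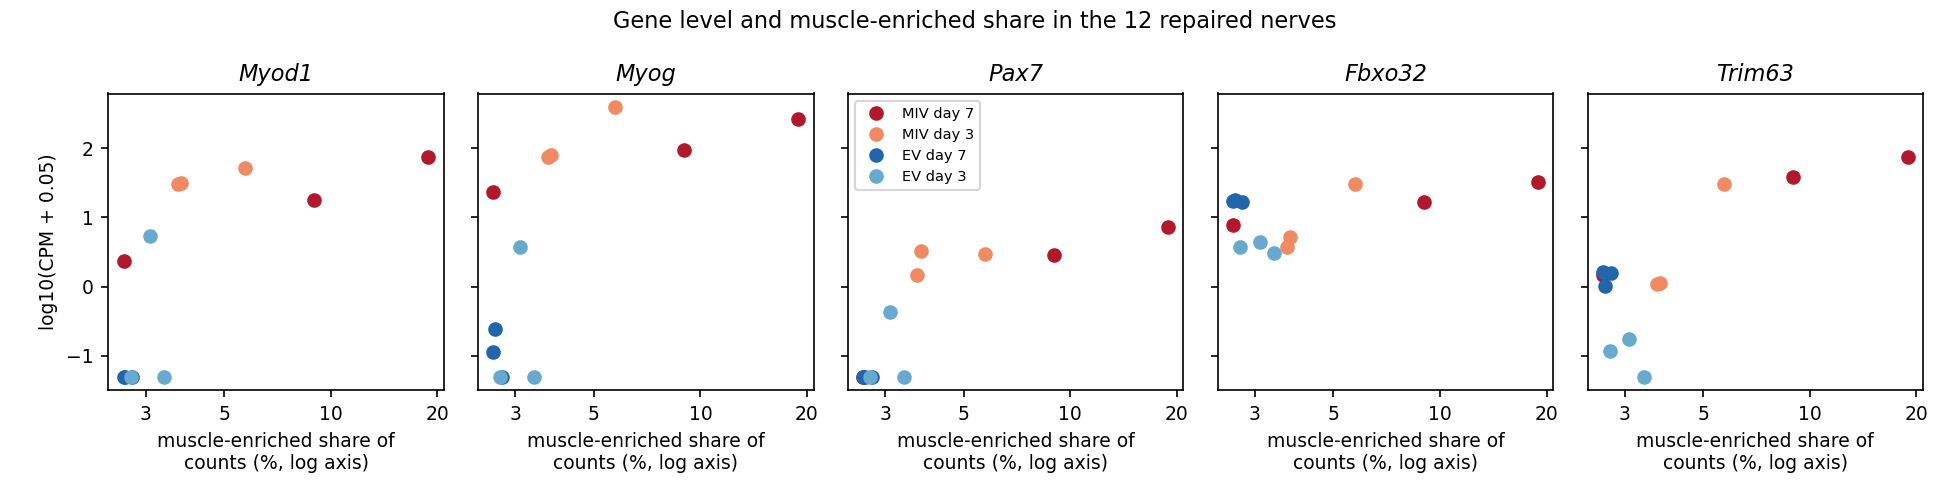
Level of each gene, as log10(CPM + 0.05), against the muscle-enriched share of counts on a log axis in the 12 repaired nerves, 1 point a library. MIV day 7 replicate 2 sits at 2.6% beside the EV day 7 nerves, with 23 CPM of Myog and 1.43 CPM of Trim63.

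Between days the regulators did not pass the test in either repair. For MIV day 7 over MIV day 3, 0 of the 5 genes were called, where 7.39% of tested genes were higher and 8.09% lower, and 0 of the 5 had an unadjusted p under 0.05, beside 32.8% of all genes. The log2 differences of day 7 over day 3 were -0.24 ± 1.39 for Myod1 (SE, adjusted p = 0.928), -0.49 ± 1.15 for Myog (adjusted p = 0.802) and 0.47 ± 1.32 for Pax7 (adjusted p = 0.837). For the ligases they were 0.56 ± 0.72 for Fbxo32 (adjusted p = 0.627) and 1.88 ± 1.32 for Trim63 (adjusted p = 0.35). Without MIV day 3 replicate 1, both ligases were called higher at day 7, Fbxo32 by 2.13 log2 units (adjusted p = 0.0297) and Trim63 by 5.18 (adjusted p = 0.0326), beside 14.6% of genes called. limma voom with quality weights called the same 2 genes with all libraries in, beside 35.1% of genes, and DESeq2 called 0 of the 5, beside 24.5%.

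In EV nerves the ligases had higher values at day 7. Fbxo32 averaged 17.1 ± 0.608 CPM at day 7 and 3.72 ± 0.694 CPM at day 3 (SD, n = 3 each), with no overlap, a difference of 2.21 ± 0.77 log2 units that did not pass the test (SE, edgeR adjusted p = 0.0668). It was called without MIV day 3 replicate 1, MIV day 3 replicate 3 or MIV day 7 replicate 2 (2.21, adjusted p of 0.0122 to 0.049). Those libraries are no part of this comparison, and the cause was not tested. Trim63 had 69 counts over the 3 day 7 nerves and 3 counts over the 3 day 3 nerves, a ratio of 21.6 with a 95% counting interval of 7.1 to 108 (adjusted p = 0.192). The groups did not overlap. Myod1 was at 0 at day 7 and at 83 counts at day 3, at least 29-fold lower (adjusted p = 0.152), all of it from EV day 3 replicate 2. Of the 5 genes 0 were called and 1, Fbxo32, had an unadjusted p under 0.05, beside 34.9% of all genes, where 9.41% of tested genes were called higher and 10.2% lower. DESeq2 called Fbxo32 and Trim63 higher and Myod1 lower, beside 27.7% of genes, and limma voom called Fbxo32 higher, beside 42.6%. The difference between the repairs in their change from day 3 to day 7 called 0 of the 5 genes and 0% of all genes, with 0 of the 5 and 5.29% of all genes at an unadjusted p under 0.05 and adjusted p-values of at least 0.906 for the members. DESeq2 and limma voom also called 0 of the 5 in that comparison.

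Against healthy muscle, both ligases were lower in MIV nerves at both days. Myog and Pax7 had higher means in MIV nerves than in muscle, and Myod1 a lower one. At day 7 Fbxo32 averaged 19.1 ± 12.8 CPM in MIV nerves and 250 ± 226 CPM in muscle (SD, n = 3 each), lower by a log2 difference of -3.71 ± 0.7 (SE, adjusted p = 0.000131). Trim63 averaged 38.2 ± 37 CPM in MIV nerves at day 7 and 966 ± 645 CPM in muscle, a log2 difference of -4.66 ± 1.11 (adjusted p = 0.00113). At day 3 the log2 differences were -4.24 ± 0.72 for Fbxo32 (adjusted p = 3.56e-05) and -6.49 ± 1.21 for Trim63 (adjusted p = 0.000103). No MIV library reached the lowest muscle library in either ligase. Of the 5 genes 2 were called lower at each day, beside 31.3% of tested genes lower at day 7 and 33% at day 3. These calls held without any 1 library, and leaving out any of 3 libraries moved a difference by over 1.5 times. Without MIV day 3 replicate 1 the day 3 differences were -5.82 for Fbxo32 and -9.8 for Trim63. Without muscle replicate 3 Fbxo32 stood at -2.61 at day 7 and -3.15 at day 3, and Trim63 at -3.92 and -5.76. Without MIV day 7 replicate 3 the day 7 differences were -4.34 for Fbxo32 and -5.61 for Trim63.

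Myog averaged 126 ± 123 CPM in MIV nerves at day 7 and 182 ± 182 CPM at day 3, against 39.6 ± 8.51 CPM in healthy muscle. It was the single member called higher at day 3, by 2.2 ± 0.93 log2 units (adjusted p = 0.0454), beside 33.5% of tested genes. That call was lost without MIV day 3 replicate 1 (0.96, adjusted p = 0.375), without any 1 of the 3 muscle libraries (adjusted p of 0.0743 to 0.11), without the filter on low counts (2.27, adjusted p = 0.0707) and in DESeq2 (2.18, adjusted p = 0.28). At day 7 Myog differed by 1.67 ± 0.91 log2 units (adjusted p = 0.116), where 34.7% of tested genes were called higher. Pax7 averaged 3.39 ± 3.69 CPM in MIV nerves at day 7 and 2.5 ± 0.936 CPM at day 3, against 0.992 ± 0.529 CPM in muscle. Its differences of 1.78 ± 1.33 and 1.34 ± 1.32 log2 units did not pass the test (adjusted p = 0.258 and 0.392). Without MIV day 7 replicate 2, Myog (2.17, adjusted p = 0.035) and Pax7 (2.37, adjusted p = 0.048) were called higher at day 7.

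Myod1 averaged 31.2 ± 37.4 CPM in MIV nerves at day 7 and 37.7 ± 12.1 CPM at day 3, against 75 ± 25.5 CPM in muscle. The differences of -1.27 ± 1.21 and -0.99 ± 1.2 log2 units did not pass the test (adjusted p = 0.373 and 0.487), although at day 3 the highest MIV library, 51.7 CPM, was below the lowest muscle library, 56.4 CPM. A fit of those 2 groups alone called Myod1 lower at day 3 (-0.91, adjusted p = 0.024). The scaling bears on all of these values, because the TMM factors were 0.41 to 0.421 in muscle and 1.03 to 1.24 elsewhere. With library totals, the median of all genes stood at 1.58 log2 units at day 7 and 1.56 at day 3, against 0.17 and 0.07 with TMM, and 88.4% of calls at day 7 and 84.9% at day 3 were higher in MIV nerves, against 52.6% and 50.4% with TMM. Myod1 then turned to 0.14 (adjusted p = 0.921) at day 7 and 0.5 (adjusted p = 0.719) at day 3, still under the median of all genes. Fbxo32 (-2.28 at day 7, -2.75 at day 3) and Trim63 (-3.23 at day 7, -5.01 at day 3) were still called lower, and Myog was called higher at both days (3.08, adjusted p = 0.00742, and 3.68, adjusted p = 0.00251). Scaling from genes that were not muscle-enriched removed the Myog call at day 3 (1.94, adjusted p = 0.0754).

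**Figure D3:**
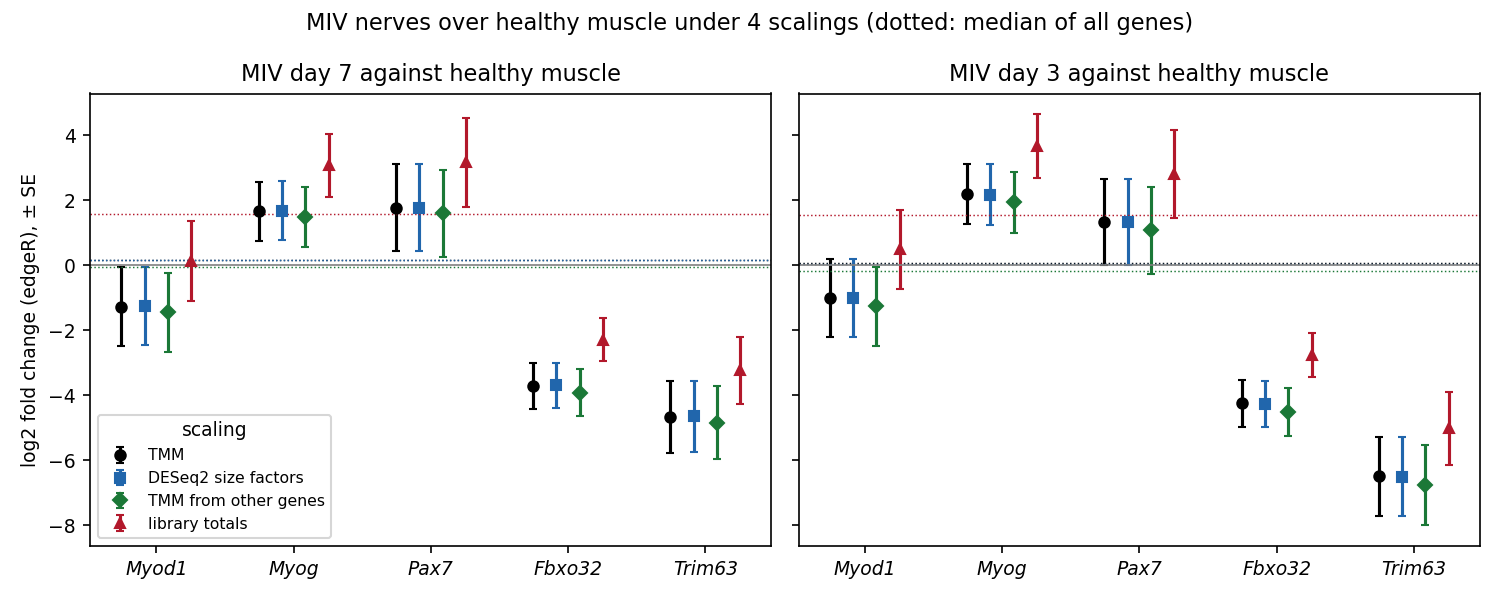
Log2 fold changes of MIV nerves over healthy muscle at day 7 (left) and day 3 (right) under 4 scalings, with error bars of 1 SE. Dotted lines give the median of all genes, 1.58 at day 7 and 1.56 at day 3 for library totals. Both ligases lie below the median of all genes under each scaling, and Myod1 changes sign with library totals.

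A level set against the muscle-enriched counts of the same library uses no scaling factor. Those counts are not muscle RNA alone, since EV nerves and healthy vein held a share like that of MIV day 7 replicate 2. Their genes were chosen as high in these same muscle libraries, with 51.4% to 57% of counts, against 2.6% to 18.9% in MIV nerves. A gene with an equal share of all counts in both is therefore higher in MIV nerves in this unit. Per 1000000 counts of the library total, Myod1 averaged 31 in muscle, 34.4 in MIV nerves at day 7 and 44 at day 3. How many of all genes lie above muscle in this unit was not tested. In counts per 1000000 muscle-enriched counts, Myog had a median of 1200 counts in MIV nerves at day 7 (range 951 to 1510) and 2440 at day 3 (2410 to 7860), against 29.1 in healthy muscle (26 to 36.2). Myod1 had 228 at day 7 (95.4 to 423) and 997 at day 3 (944 to 1040), against 47.6 in muscle (45.4 to 80.8). EV day 3 replicate 2 held 202 of Myod1 and 139 of Myog in this unit, also above all 3 muscle libraries and, for Myod1, within the range of MIV nerves at day 7. All 6 MIV nerves were above all 3 muscle libraries in both genes, and the 3 day 3 nerves were above the 3 day 7 nerves. Pax7 had 36.7 at day 7 (0 to 42.1) and 57.5 at day 3 (47 to 98.1), against 0.872 in muscle (0.328 to 1.08), and 14.6 in EV day 3 replicate 2. Each of these 3 genes gave p = 0.1 at each day in an exact two-sided permutation test, the smallest p that 3 against 3 libraries allow. For Pax7 at day 7 that p rests on an added prior count, since 1 MIV library was at 0.

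For the ligases the MIV and muscle ranges overlapped. Fbxo32 had a median of 217 in the same unit in MIV nerves at day 7 (189 to 314) and 159 at day 3 (119 to 615), against 111 in muscle (75.3 to 396). Trim63 had 435 at day 7 (58.9 to 487) and 34.5 at day 3 (33.3 to 600), against 493 in muscle (425 to 1330). At day 3 the Trim63 overlap rested on MIV replicate 1 alone, at 600, with replicates 2 and 3 at 33.3 and 34.5. The mean log2 differences from muscle were 0.66 and 0.61 for Fbxo32 at day 7 and day 3 (exact p = 0.5 for each) and -1.48 and -2.86 for Trim63 (exact p = 0.4 and 0.3). With 1 library left out in turn, the Trim63 difference ran from -4.23 to -2.16 at day 3 and from -2.01 to -0.5 at day 7. The sign for Fbxo32 turned with a wider set of 2837 genes, to -0.5 at day 7 and -0.97 at day 3, and at day 3 also without MIV replicate 1 (-0.1). Fbxo32 counts also came from libraries with few muscle-enriched counts, with 745 to 820 in this unit in EV nerves at day 7, 404 to 764 in nerve and 1820 to 2670 in vein, all above the MIV medians. The denominator, too, includes genes that other cells express, since EV nerves, with almost no Myod1 or Myog, also had 2.6% to 3.39% of counts in these genes.

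**Figure D4:**
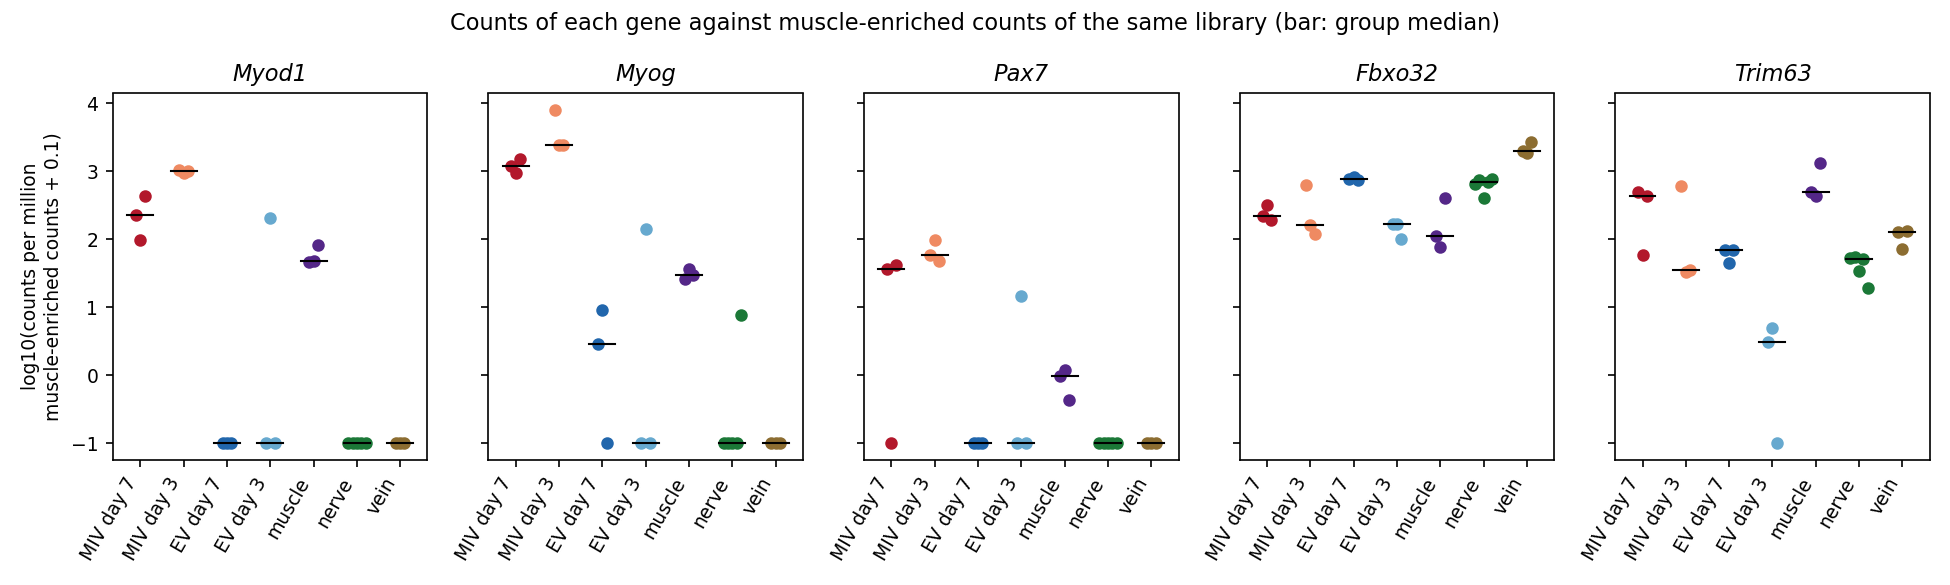
Counts of each gene per 1000000 muscle-enriched counts of the same library, as log10(value + 0.1), in all 23 libraries. Points are libraries and bars are medians. Myod1 and Myog lie above muscle in all 6 MIV nerves and in EV day 3 replicate 2. The unit itself favours higher values outside muscle, where muscle-enriched counts are a smaller share. Fbxo32 and Trim63 in MIV nerves overlap with muscle, Trim63 at day 3 through MIV replicate 1 alone.

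Ratios of 2 genes within a library were set up after the values had been seen and are given as a description. Neither ratio is per length, so they compare libraries and not the genes with each other. The Myog to Myod1 count ratio was 5.24, 9.97 and 3.58 in MIV nerves at day 7 and 7.59, 2.58 and 2.42 at day 3, against 0.574, 0.759 and 0.36 in healthy muscle. All 6 MIV nerves were above all 3 muscle libraries. EV day 3 replicate 2, with 57 Myog and 83 Myod1 counts, had a ratio of 0.687, within the range of healthy muscle. The Trim63 to Fbxo32 count ratio was 2.24, 0.188 and 2.3 in MIV nerves at day 7 and 0.975, 0.209 and 0.289 at day 3. It was 0.0545 to 0.0927 in EV nerves at day 7, 0 to 0.029 in EV nerves at day 3 and 3.35 to 5.64 in healthy muscle, beside 0.0251 to 0.0826 in nerve and 0.0394 to 0.0635 in vein. All 6 MIV nerves lay between the EV and the muscle ranges.

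**Figure D5:**
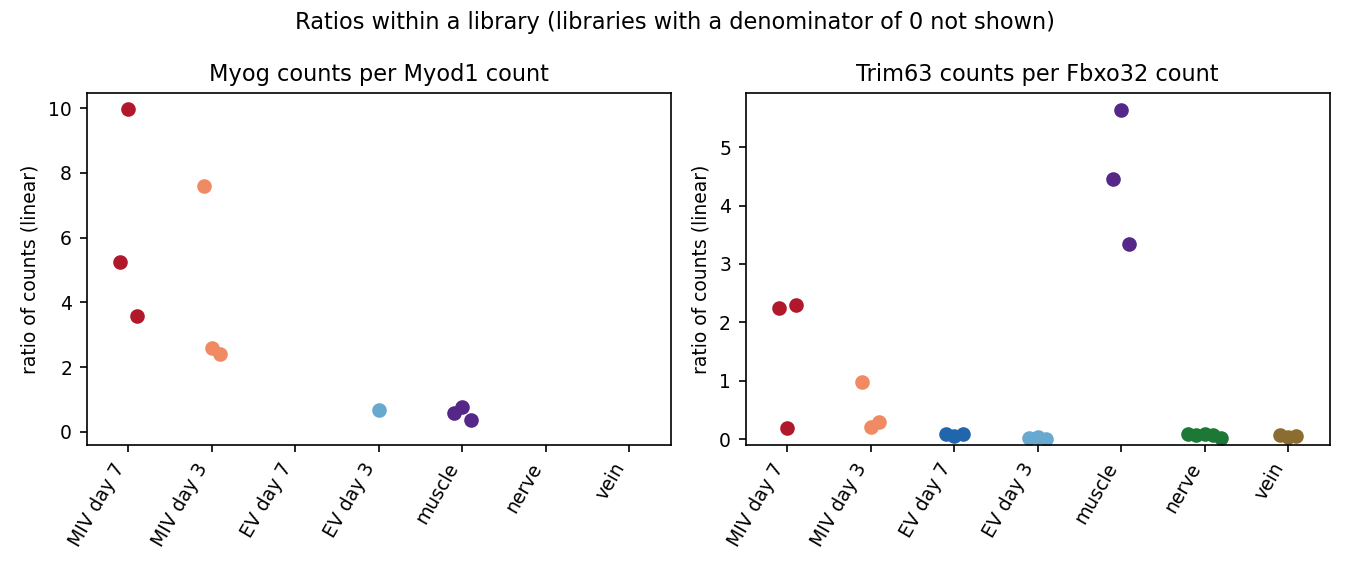
Counts of Myog per Myod1 count (left) and of Trim63 per Fbxo32 count (right) within each library, on linear axes, without libraries whose denominator was 0. The Myog ratio was 2.42 or more in MIV nerves and 0.759 or less in healthy muscle, and the Trim63 ratio was highest in healthy muscle, at 3.35 to 5.64.

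Against healthy nerve, 4 of the 5 genes were higher in MIV nerves at each day, beside 29.2% of tested genes at day 7 and 30.9% at day 3. Myod1 was at least 820-fold higher at day 7 (adjusted p = 0.00066) and at least 991-fold higher at day 3 (adjusted p = 0.00042). Myog exceeded nerve by a count ratio of 4840 at day 7, with a 95% counting interval of 1340 to 40000 (adjusted p = 2.14e-06), and of 7270 at day 3, with an interval of 2010 to 60000 (adjusted p = 7.6e-07). Pax7 was at least 89-fold higher at day 7 (adjusted p = 0.0016), with 1 MIV library at 0 as in nerve, and at least 65-fold higher at day 3 (adjusted p = 0.00193). Trim63 was higher by 5.5 ± 1.02 log2 units at day 7 (SE, adjusted p = 0.000166) and 3.66 ± 1 at day 3 (adjusted p = 0.00383). Without MIV day 7 replicate 3 the day 7 difference was 4.54 (adjusted p = 0.00135). The day 3 difference fell to 0.35 without MIV replicate 1 (adjusted p = 0.789). Fbxo32 differed by 0.59 ± 0.57 log2 units at day 7 (adjusted p = 0.398) and 0.05 ± 0.58 at day 3 (adjusted p = 0.943), but without MIV day 3 replicate 1 it was called lower at day 3 (-1.52, adjusted p = 0.0263).

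Against healthy nerve, Fbxo32 was lower in EV nerves at day 3 and no member passed the test at day 7. At day 7 Fbxo32 averaged 17.1 ± 0.608 CPM in EV nerves (n = 3) and 12.7 ± 2.37 CPM in nerve (n = 5), without overlap, and 0 of the 5 genes were called, beside 24.1% of tested genes higher and 24% lower. The Fbxo32 difference was 0.43 ± 0.57 log2 units (SE, adjusted p = 0.561), and a fit of those 2 groups alone called it higher (0.46, adjusted p = 0.0394). DESeq2 called 0 of the 5, and 0 of the 5 had an unadjusted p under 0.05 in edgeR, beside 54.4% of all genes. Trim63 averaged 1.35 ± 0.333 CPM in EV nerves at day 7 and 0.827 ± 0.3 CPM in nerve (0.69 ± 1.16 log2 units, adjusted p = 0.651). At day 3 Fbxo32 averaged 3.72 ± 0.694 CPM in EV nerves, against 12.7 ± 2.37 CPM in nerve. The log2 difference was -1.77 ± 0.65 (adjusted p = 0.0236). It was 1 of the 5 genes called lower, no larger a share than the 30.7% of all tested genes. That call was lost without EV day 3 replicate 1 (adjusted p = 0.0611) or replicate 3 (adjusted p = 0.0811). Trim63 at day 3 had 3 counts over the EV nerves, a count ratio to nerve of 0.0744 with a 95% counting interval of 0.015 to 0.227 (adjusted p = 0.144). DESeq2 called it lower (-3.71, adjusted p = 0.00749), and so did a fit of the 2 groups alone (-3.54, adjusted p = 0.00203). Myod1 (at least 46-fold, adjusted p = 0.029) and Myog (ratio 47.4, interval 12.5 to 401, adjusted p = 0.0265) were called higher than nerve at day 3, beside 30% of tested genes. Both rested on EV replicate 2, without which Myod1 was at 0 in both groups and Myog had no call (-2.04, adjusted p = 0.713). Without nerve replicate 2 Myog also missed the threshold (4.88, adjusted p = 0.0509). Without the filter on low counts Myod1 missed it (adjusted p = 0.0615), and in a fit of the 2 groups alone neither gene passed the filter.

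Ordered by mean CPM, each gene had its own series of groups. Myod1 was highest in healthy muscle (75), then in MIV nerves at day 3 (37.7) and day 7 (31.2). The muscle range did not overlap that of MIV day 3, while the ranges of both MIV days overlapped each other. Myog was highest in MIV nerves at day 3 (182), then at day 7 (126) and in muscle (39.6), with overlap between neighbours in that order. Pax7 ran from MIV day 7 (3.39) through MIV day 3 (2.5) to muscle (0.992), also with overlap between neighbours. Fbxo32 was highest in muscle (250) and then in vein (49.4), neither overlapping its neighbour, and lowest in EV nerves at day 3 (3.72), below the range of nerve. Trim63 was highest in muscle (966), then in MIV nerves at day 7 (38.2) and day 3 (10.7), and lowest in EV nerves at day 3 (0.0649).

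The 3 regulators ran closely together across the 12 repaired nerves, and Fbxo32 ran with Trim63. These 12 libraries differ in graft label and in muscle-enriched share, and the part of either in r was not tested. As a description, Pearson's r of log2 CPM was 0.977 between Myod1 and Myog, 0.936 between Myod1 and Pax7 and 0.894 between Myog and Pax7. It was 0.833 between Fbxo32 and Trim63, and 0.202 to 0.317 between Fbxo32 and the regulators. Trim63 lay between, with r of 0.642 to 0.717 to the regulators. Among 13975 genes compared, the most like patterns had r = 0.987 for Myod1 (ENSRNOG00000022419), 0.99 for Myog (ENSRNOG00000012546), 0.971 for Pax7 (ENSRNOG00000000405) and 0.982 for Trim63 (ENSRNOG00000039110), and the best r for Fbxo32 was 0.946. Of the 50 genes most like each member, 40 for Myod1, 41 for Myog, 39 for Pax7, 39 for Trim63 and 20 for Fbxo32 were muscle-enriched by more than 1 log2 unit, against 18.6% of all genes compared.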

How the data were processed

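Per the labels' protocols, poly-T-selected mRNA from 350 ng of total RNA gave non-directional libraries, so strand is not known. The submitters' processing notes name CASAVA and HISAT2, without versions. The counter, build and annotation were not given in the sources used here. The deposited values are whole-number counts by Ensembl identifier and library, whose unequal library totals are those of raw counts as the authors deposited them. Each of the table's 23 columns carries a library title. No symbol table matched the identifiers, so only the 5 chosen genes carry symbols, and the planned pathway and cell marker lists were not measured. Muscle-enriched genes stand in for markers. Groups came from titles. The genes and lists were chosen with earlier results of these data known, and all 5 genes are named in every comparison.

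The counts were fitted with edgeR 4.0.16 in R 4.3.3 (filterByExpr at min.count 10 and min.total.count 15, TMM, robust glmQLFit and glmQLFTest, Benjamini-Hochberg adjustment over all tested genes, threshold 0.05). Comparisons among repaired nerves used 12 libraries (15036 genes, biological coefficient of variation 37.1%), and the others used all 23 (15954 genes, 31.4%). SE is the log2 fold change over the root of F. DESeq2 1.42.0 and limma 3.58.1 (voom) were alternatives, and all 3 were tested on simulated data. Log2 CPM had a prior count of 2, and log2 levels per muscle-enriched count one of 0.5. In deviations from group means, same-numbered libraries correlated by 0.224, 0.201 and 0.176 at day 7. At day 3 they correlated by -0.0913, 0.239 and -0.0149. Same-numbered libraries were therefore treated as pairs at day 7 alone, from these data and not from the labels. Whether they are true pairs was not tested. No 2 replicates agreed within sampling noise. Motifs were searched in RefSeq promoters (GRCr8), of which Myog, Pax7 and Trim63 were matched by symbol.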

Additional observations from a re-analysis of the deposited data

Results flagged for a closer look

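A nerve library far from the rest of its group was found for 2 genes, by a criterion that chance meets in about 1 in 20 groups. Myog reached 0.142 CPM in healthy nerve replicate 5, from 2 counts, against 0 in the other 4 nerve libraries. Fbxo32 was 8.5 CPM in healthy nerve replicate 3, against 13.2 to 14.1 CPM in the other 4.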

How the results depend on the processing

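Among fitted log2 differences of single genes under an alternative, 1069 kept their direction and their side of the threshold, 48 gained a call, 37 lost one and 26 changed sign. Counts of called genes over the 5 that moved by more than 1.5 times were the following, and others moved by at most 1. DESeq2 called 2 for MIV over EV at day 3, 4 at day 7 and over both days, and 3 for EV day 7 over day 3. Voom called 2 for MIV day 7 over day 3 and 1 for EV day 7 over day 3. Fitting all 23 libraries called 1 for MIV over EV at day 3, 4 at day 7, 4 over both days and 1 for EV day 7 over day 3. The share of all genes called in that fit is not given here, so these counts cannot be set against the rest. Over both days 1 was called with no low-count filter and 1 with the replicate block, which changed no other count of called genes. A fit of 2 groups alone called 1 for EV day 7 over nerve, and library totals left 3 for muscle over vein. Without EV day 3 replicate 2 and MIV day 7 replicate 2, added after seeing the data like the library totals and the block at day 7 alone, MIV over EV had 3 called at day 7 and 4 over both days. Exchanging labels within day 7 pairs, also added then, moved no exact p across the threshold.

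Leaving out 1 library in turn gave 0 to 4 called for MIV over EV at day 7 and over both days, 0 to 2 for MIV day 7 over day 3, 0 to 1 for EV day 7 over day 3, 2 to 4 for MIV day 7 over muscle and 1 to 3 for EV day 3 over nerve. These ranges count members alone, without the share of all genes called in each fit. Of the log2 differences that changed sign, listed next, 1 was a call with all libraries in, Myog in EV day 3 over nerve. Voom gave 0.25 for Myog and -0.03 for Pax7 in MIV day 7 over day 3, and 0.91 for Trim63 in the interaction. The day 7 block gave -0.07 for Fbxo32 in MIV over EV at day 7. Without the 2 libraries named above, MIV day 7 over day 3 was 0.31 for Myod1 and 0.01 for Myog, EV day 7 over day 3 was 3.59 for Myog, and the Myog interaction was -3.58. Library totals gave 0.5 and 0.14 for Myod1 in MIV day 3 and day 7 over muscle. The wider muscle set gave -0.5 and -0.97 for Fbxo32 per muscle-enriched count at day 7 and day 3. Leaving out 1 library ran, for MIV day 7 over day 3, from -1.89 to 0.31 for Myod1, -1.64 to 0.75 for Myog, -0.78 to 1.05 for Pax7 and -0.1 to 2.13 for Fbxo32. It ran from -5.06 to 3.58 for Myog in EV day 7 over day 3, and in the interaction from -0.24 to 8.31 for Myod1, -4.07 to 4.57 for Myog and -3.37 to 0.9 for Trim63. Fbxo32 ran from -0.47 to 0.56 in MIV over EV at day 7, -1.52 to 0.5 in MIV day 3 over nerve, -0.05 to 0.96 in MIV day 7 over nerve and -0.1 to 1.32 per muscle-enriched count at day 3. Myog ran from -2.04 to 7.23 in EV day 3 over nerve. The cause of these changes was not tested. Low counts limit Pax7 in every group, Myod1 and Myog in the EV nerves other than day 3 replicate 2, and Trim63 in the EV nerves at day 3.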
